A study of Arabidopsis thaliana with 8 samples.

Results

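The vicilin-like genes of *Arabidopsis thaliana* are the 4 genes AT3G22640 (*PAP85*), AT2G28490, AT2G18540 and AT4G36700, taken by their locus identifiers from the 37329 genes in each of 3 deposited expression tables. All 4 were found in every table, and Cuffdiff gave each of them the status OK, which means that it had enough fragments to compare. Vicilins are the 7S globulins of seeds, storage proteins of the cupin family that are packed into protein storage vacuoles during seed maturation and broken down for amino acids after germination. They are relatives of the 12S globulins (cruciferins in *Arabidopsis*) and are laid down together with the 2S albumins and with oil bodies coated by oleosins. Storage protein genes are switched on by the B3-domain factors ABI3, FUS3 and LEC2 with LEC1 and by bZIP factors such as bZIP10, bZIP25 and bZIP53, and the embryo is the main site of their expression, with the endosperm contributing less.

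The study asked how RNA polymerase IV (Pol IV), which makes the precursors of small interfering RNAs, acts on endosperm gene expression when it is lost from either parent. *NRPD1* encodes the largest subunit of Pol IV. All groups were F1 endosperm of crosses between a L*er* mother and a Col-0 father, dissected 7 days after pollination. WT was L*er* × Col-0 (2 samples), mat *nrpd1+/-* was L*er* *nrpd1-/-* × Col-0 (3 samples), *nrpd1-/-* was L*er* *nrpd1-/-* × Col-0 *nrpd1-/-* (3 samples), and pat *nrpd1+/-* was L*er* × Col-0 *nrpd1-/-*, for which only the pooled values of its table were used here. The mutation is the T-DNA insertion *nrpd1a-4* of Col-0, and the L*er* mutant was made by introgressing it, which left 12 regions of Col-0 sequence behind. None of the 4 genes overlaps these regions, and the nearest is 2343595 bp away, at AT2G28490. Each library came from the pooled endosperm of many seeds, freed by hand of embryo and seed coat.

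Each table holds a single FPKM value (fragments per kilobase of transcript, scaled to the fragments sequenced) for WT and a single value for the mutant, pooled by Cuffdiff over the libraries of a genotype. There is therefore no spread between replicates, no value has an error, and no test was run. Differences are given as ratios and are set beside the share of all genes that differ as much. The tables were scaled separately, so levels are compared within a table unless stated. Depth per library cannot be read from them. *NRPD1*, listed as AT1G63020 and lying in an introgressed region, was at 2.28 FPKM in WT and 2.08 FPKM in mat *nrpd1+/-*, at 4.34 and 2.08 FPKM in the *nrpd1-/-* table, and at 2.01 and 0.845 FPKM in the pat *nrpd1+/-* table. Transcript over the gene was thus counted in the homozygous mutant too. The WT columns of the mat *nrpd1+/-* and pat *nrpd1+/-* tables are the same values up to scale, and the WT column of the *nrpd1-/-* table is not. The study used WT libraries made for it and WT libraries published before, and the libraries differ in read length. The sources used here list the libraries but do not say which entered which table. Genotype and library set cannot be told apart in any ratio below.

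The promoters of the 4 genes are shown because they carry different sets of the letters that B3-domain and bZIP factors are known to bind. They are the 250 bases before the annotated transcript start (RefSeq annotation, TAIR10.1, whose nuclear chromosomes have the coordinates of TAIR10 used in the files), written 5′ to 3′ along the gene. Capitals mark the RY core CATGCA, on either strand, and the core ACGT.
PAP85, chr3:8013942-8014191, minus strand: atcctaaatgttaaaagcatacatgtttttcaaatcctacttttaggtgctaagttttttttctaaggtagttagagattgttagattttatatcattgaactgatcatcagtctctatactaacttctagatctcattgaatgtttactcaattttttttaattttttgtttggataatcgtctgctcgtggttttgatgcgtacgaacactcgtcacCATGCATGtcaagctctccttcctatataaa
AT2G28490, chr2:12181013-12181262, minus strand: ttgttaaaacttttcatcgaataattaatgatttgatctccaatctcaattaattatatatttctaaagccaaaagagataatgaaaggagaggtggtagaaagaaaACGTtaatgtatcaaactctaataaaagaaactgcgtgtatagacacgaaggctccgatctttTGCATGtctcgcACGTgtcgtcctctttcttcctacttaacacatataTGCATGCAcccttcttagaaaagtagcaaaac
AT2G18540, chr2:8045034-8045283, minus strand: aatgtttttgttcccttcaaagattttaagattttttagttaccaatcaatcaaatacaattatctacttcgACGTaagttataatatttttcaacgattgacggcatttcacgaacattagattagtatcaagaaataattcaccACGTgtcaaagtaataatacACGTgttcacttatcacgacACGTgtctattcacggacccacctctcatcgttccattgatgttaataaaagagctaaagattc
AT4G36700, chr4:17300368-17300617, minus strand: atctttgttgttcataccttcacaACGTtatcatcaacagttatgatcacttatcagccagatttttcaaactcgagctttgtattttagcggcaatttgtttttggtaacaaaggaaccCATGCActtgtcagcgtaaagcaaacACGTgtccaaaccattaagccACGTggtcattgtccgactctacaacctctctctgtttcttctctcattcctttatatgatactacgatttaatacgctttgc

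*PAP85* had an RY core on each strand, overlapping in an 8-base palindrome from 31 to 24 bases before the start, and no ACGT core. AT2G28490 also had an overlapping RY pair, with the strands in the other order, at nearly the same place, from 32 to 25 bases before the start, and a further RY core from 80 to 75. AT2G28490 also had a G-box (CACGTG, which contains the ACGT core) from 69 to 64 bases before the start. AT2G18540 had no RY core and had 3 G-boxes, from 105 to 100, from 85 to 80 and from 65 to 60 bases before the start. AT4G36700 had 1 RY core, from 130 to 125, and 2 G-boxes, from 105 to 100 and from 84 to 79. Among 27443 promoters of nuclear protein-coding genes cut in the same way, 8.43% held at least 1 RY core, 1.66% at least 2 and 0.328% at least 3, overlapping matches counted separately. A G-box was in 6.49% of promoters, at least 2 were in 0.875% and at least 3 in 0.0984%. The ACGT core was in 44.1%. The abscisic acid response letters ACGTGTC, which overlap the G-boxes, were in 3 of the 4 promoters (AT2G28490, AT2G18540 and AT4G36700) and in 3.68% of all, and ACGTGGC was in that of AT4G36700 and in 3.37% of all. Neither the AACA letters AACAAAC, found in 11.2% of promoters, nor the prolamin box TGTAAAG, found in 4.53%, was in any of the 4. Among other storage protein genes, the RY core was in the promoters of 3 of 4 cruciferin and 5 of 5 2S albumin genes. The G-box was in 0 of 4 and 5 of 5, and ACGTGTC in 0 of 4 and 0 of 5. Both strands were searched throughout. A match is a run of letters and not a measured binding site.

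**Figure D1:**
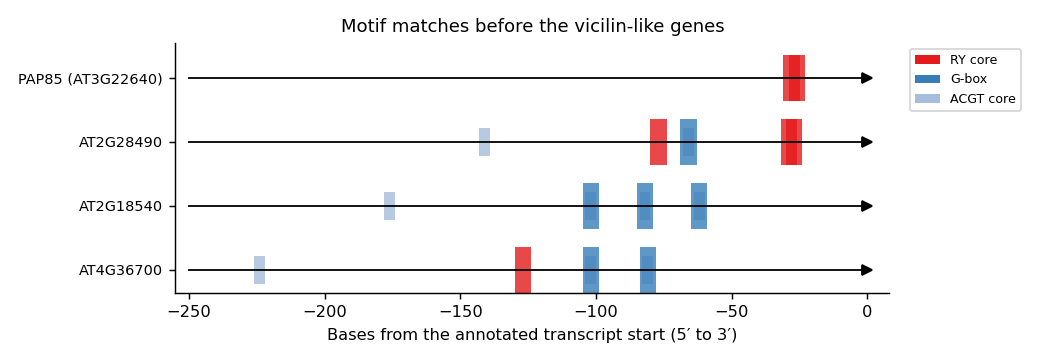
Matches to the RY core, the G-box and the ACGT core in the 250 bases before the annotated transcript start of each vicilin-like gene; the x axis is the distance in bases from the start and bar width is the length of the match. *PAP85* and AT2G28490 have an overlapping RY pair close to the start. AT2G28490, AT2G18540 and AT4G36700 have G-boxes farther upstream, and AT4G36700 also has an RY core.

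*PAP85* (chromosome 3 of TAIR10 from 8011724 to 8013941, minus strand, 5 coding exons, 1461 coding bases) encodes a vicilin-like storage protein. Its level was 2.08 FPKM in WT and 465 FPKM in mat *nrpd1+/-*. In the *nrpd1-/-* table it was 31.6 FPKM in WT and 540 FPKM in *nrpd1-/-*. In the pat *nrpd1+/-* table it was 1.84 FPKM in WT and 0.354 FPKM in pat *nrpd1+/-*. *PAP85* was therefore low in WT of the mat and pat tables, among the most abundant transcripts where the mother was *nrpd1-/-*, and lowest where only the father was. The mutant value was 224 times the WT value in mat *nrpd1+/-*, 17.1 times in *nrpd1-/-*, and 19.2% of WT in pat *nrpd1+/-*. On the scale of log2(FPKM + 1), which shrinks ratios of low values, these differences were 7.24, 4.05 and −1.07. The first of them was number 6 from the top among 21979 genes with status OK, the second number 115 among 20308, and the pat *nrpd1+/-* value number 465 from the bottom among 20651. By level, *PAP85* went from rank 15386 among 37044 nuclear genes in WT to rank 222 in mat *nrpd1+/-*, and from rank 3859 to rank 160 in the *nrpd1-/-* table.

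AT2G28490 (chromosome 2 from 12178597 to 12181012, minus strand, 5 coding exons, 1536 coding bases) is annotated as an RmlC-like cupin and encodes a vicilin-like seed storage protein. Its level was 1.48 FPKM in WT and 166 FPKM in mat *nrpd1+/-*. In the *nrpd1-/-* table it was 29.4 FPKM in WT and 325 FPKM in *nrpd1-/-*. In the pat *nrpd1+/-* table, WT was at 1.31 FPKM and the mutant at 0.340 FPKM. AT2G28490 thus ran parallel to *PAP85* at a lower level, with the same order of the 6 values. The mutant value was 112 times WT in mat *nrpd1+/-* and 11.0 times WT in *nrpd1-/-* (log2 differences 6.08 and 3.42, numbers 15 and 172 from the top). In pat *nrpd1+/-* it was 25.9% of WT (log2 difference −0.79 with 1 FPKM added). Whether this value passes 2-fold depends on the FPKM added, since it was −1.68 with 0.1 FPKM added and −1.95 with none. The pat *nrpd1+/-* values of AT2G28490 and *PAP85* were both under 1 FPKM, so their ratios to WT rest on levels near the floor.

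AT2G18540 (chromosome 2 from 8042096 to 8045033, minus strand, 4 coding exons, 2136 coding bases) encodes the longest of the 4 proteins. Its level was 10.2 FPKM in WT and 48.3 FPKM in mat *nrpd1+/-*. In the *nrpd1-/-* table it was 18.7 FPKM in WT and 59.1 FPKM in *nrpd1-/-*. In the pat *nrpd1+/-* table, WT was at 9.02 FPKM and the mutant at 2.66 FPKM. The directions were those of *PAP85* and AT2G28490, over a much narrower range. The mutant value was 4.74 times WT in mat *nrpd1+/-*, 3.15 times WT in *nrpd1-/-* and 29.5% of WT in pat *nrpd1+/-* (log2 differences 2.14, 1.61 and −1.45). The decrease in pat *nrpd1+/-* was number 163 from the bottom of 20651 genes, lower than that of any other vicilin-like gene on this scale. With no FPKM added the order was the reverse, since *PAP85* was at 19.2% and AT2G28490 at 25.9% of WT. Of 2373 windows of 40 bases along the AT2G18540 transcript, 109 also occur elsewhere in the genome, so a small part of its reads could be shared with other loci. No such window was found for the other 3 genes, and no window is shared between members.

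AT4G36700 (chromosome 4 from 17298200 to 17300367, minus strand, 4 coding exons, 1569 coding bases) encodes the vicilin-like protein whose transcript was abundant in every column. Its level was 1224 FPKM in WT and 1069 FPKM in mat *nrpd1+/-*. In the *nrpd1-/-* table it was 1187 FPKM in WT and 999 FPKM in *nrpd1-/-*. In the pat *nrpd1+/-* table, WT was at 1080 FPKM and the mutant at 821 FPKM. AT4G36700 differed by less than 2-fold from WT in every table. The mutant value was 87.4%, 84.1% and 76.0% of WT (log2 differences −0.19, −0.25 and −0.39, the first of which became 0.36 when each column was scaled to the same total over nuclear genes). Its rank among nuclear genes ran from 49 to 277 over the 6 columns.

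**Figure D2:**
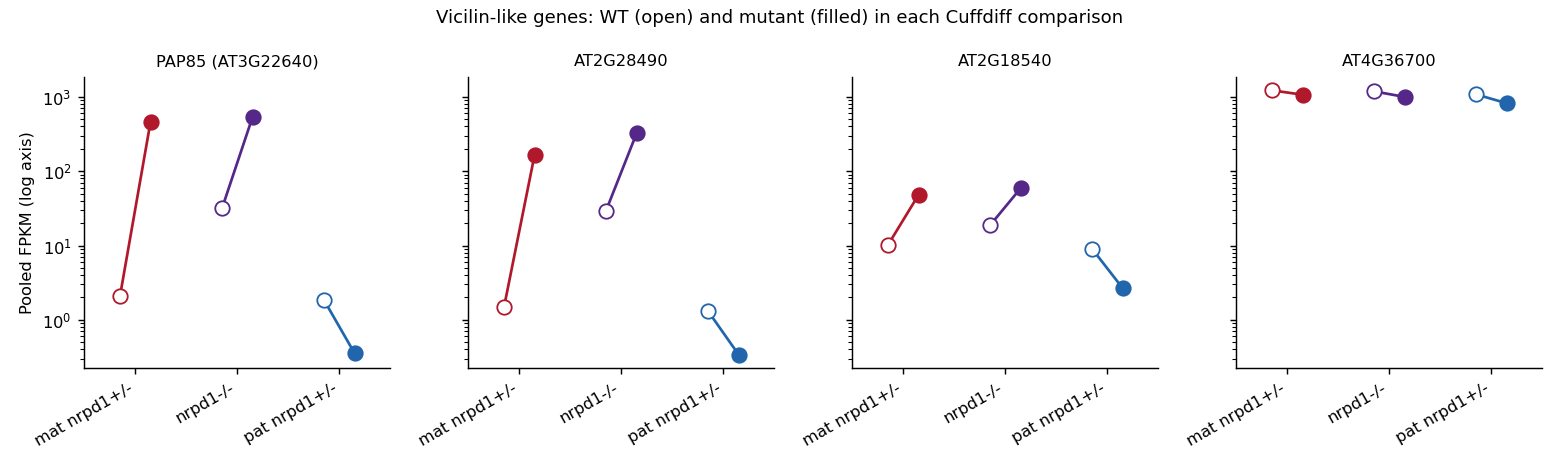
Pooled FPKM (log axis) of each vicilin-like gene in WT (open circles) and mutant (filled circles), joined by a line within each comparison; there are no error bars because each point is a single pooled value. *PAP85*, AT2G28490 and AT2G18540 are above WT in mat *nrpd1+/-* and *nrpd1-/-* and below WT in pat *nrpd1+/-*, whereas AT4G36700 lies between 821 and 1224 FPKM in every column.

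By count, 3 of the 4 vicilin-like genes were at least 2-fold higher in mat *nrpd1+/-* and 0 were at least 2-fold lower, where 9.32% of all genes with status OK were at least 2-fold higher and 12.2% lower. The median log2 difference of the 4 was 4.11, and that of all genes was −0.05. In *nrpd1-/-*, the same 3 genes were at least 2-fold higher, and 0 were lower, against backgrounds of 8.18% higher and 6.52% lower, and the median was 2.51 against 0.01. In pat *nrpd1+/-*, *PAP85* and AT2G18540 were at least 2-fold lower and 0 genes were higher, against backgrounds of 2.8% lower and 2.36% higher, and the median was −0.93 against 0.03. A list of 4 genes is short, and these comparisons with the background are descriptions. The mat *nrpd1+/-* and pat *nrpd1+/-* ratios share their WT values.

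**Figure D3:**
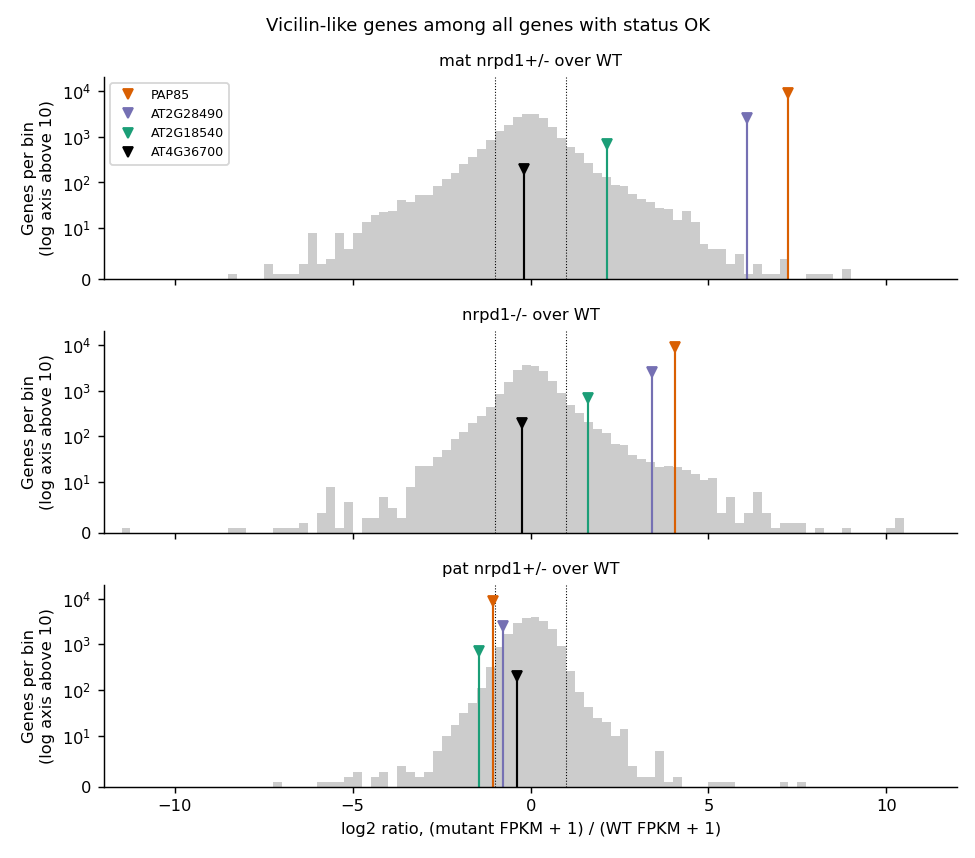
Distribution of the log2 difference from WT over all genes with status OK in each table (gray bars, axis logarithmic above 10 genes), with the 4 vicilin-like genes as colored markers whose height has no meaning; dotted lines mark 2-fold. *PAP85* at 7.24 and AT2G28490 at 6.08 lie in the far tail in mat *nrpd1+/-*, and AT4G36700 lies in the bulk of every distribution.

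Because FPKM is per kilobase, levels of the 4 genes can be compared with each other within a column, and such ratios do not depend on how a table was scaled. In WT of the mat *nrpd1+/-* table, AT4G36700 made up 98.9% of the summed vicilin-like FPKM, AT2G18540 0.823%, *PAP85* 0.168% and AT2G28490 0.119%. In mat *nrpd1+/-*, the shares were 61.1% for AT4G36700, 26.6% for *PAP85*, 9.49% for AT2G28490 and 2.76% for AT2G18540. AT2G18540 was thus second of the 4 in WT and last in mat *nrpd1+/-*, with *PAP85* at 0.204 times AT2G18540 in that WT and at 9.64 times in the mutant, and *PAP85* was above AT2G28490 in both. In the *nrpd1-/-* table, AT4G36700 made up 93.7% in WT and the other 3 genes 6.30% together, and in *nrpd1-/-* the shares were 52.0% for AT4G36700, 28.1% for *PAP85*, 16.9% for AT2G28490 and 3.07% for AT2G18540. The order there was the same in WT and mutant, with *PAP85* at 1.69 and 9.14 times AT2G18540. AT4G36700 was 589 times as abundant as *PAP85* in WT of the mat table and 2.30 times in mat *nrpd1+/-*, 37.5 and 1.85 times in the *nrpd1-/-* table, and 587 and 2322 times in the pat *nrpd1+/-* table. The sum of the 4 genes moved far less than its make-up: it was 1238 FPKM in WT and 1749 FPKM in mat *nrpd1+/-*, 1267 and 1922 FPKM in the *nrpd1-/-* table, and 1092 and 824 FPKM in the pat *nrpd1+/-* table. Without AT4G36700, the sum of the other 3 genes was 13.7 FPKM in WT and 680 FPKM in mat *nrpd1+/-*, 79.8 and 923 FPKM in the *nrpd1-/-* table, and 12.2 and 3.36 FPKM in the pat *nrpd1+/-* table. With no spread between replicates, it cannot be said which neighbors in these orders differ beyond error.

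**Figure D4:**
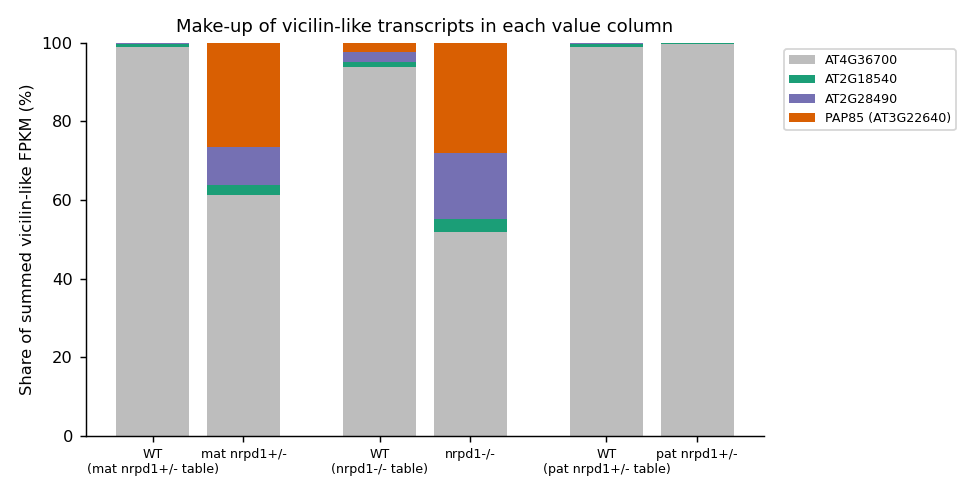
Share (%) of each gene in the summed FPKM of the 4 vicilin-like genes, for WT and mutant in each table. AT4G36700 makes up 98.9% in WT of the mat *nrpd1+/-* table and 61.1% in mat *nrpd1+/-*, where *PAP85* makes up 26.6%.

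Beside the smaller ratios in *nrpd1-/-* stood higher WT values, not lower mutant values. After centering on the median of all genes, WT in the *nrpd1-/-* table was 16.6 times WT in the mat *nrpd1+/-* table at *PAP85*, 21.7 times at AT2G28490, 2.00 times at AT2G18540 and 1.06 times at AT4G36700. These were numbers 83 and 72 from the top at *PAP85* and AT2G28490 among 16037 genes with at least 1 FPKM in both columns, of which 14.5% were at least 2-fold higher. In either direction, 32.1% of these genes differed at least 2-fold between the 2 WT columns. The mutant columns were closer: *nrpd1-/-* was at 1.23 times mat *nrpd1+/-* for *PAP85*, 2.07 times for AT2G28490, 1.30 times for AT2G18540 and 0.989 times for AT4G36700, again after centering across separately scaled tables. Of 16598 genes compared between the mutant columns, 7.56% differed at least 2-fold and 2.66% were at least 2-fold higher in *nrpd1-/-*. AT2G28490 was number 381 from the top among them. The ratios of 224 and 17.1 given above for *PAP85* are of unscaled FPKM. With columns scaled to a common total, *PAP85* was at 1.79 in its own WT and 589 in mat *nrpd1+/-*. In the *nrpd1-/-* table it was at 39.6 and 719 on that scale. WT was then taken from the other set on the same scale, a comparison chosen after the values were seen. *PAP85* in mat *nrpd1+/-* was 14.9 times that WT, and *PAP85* in *nrpd1-/-* was 402 times. AT2G28490 in mat *nrpd1+/-* was 5.70 times that other WT, and AT2G18540 was 2.61 times. For *PAP85*, AT2G28490 and AT2G18540, the direction was the same with either WT in all 3 mutants, and the size was not. AT4G36700 in pat *nrpd1+/-* was at 0.444 times the other WT, which is past 2-fold, and in *nrpd1-/-* at 1.26 times.

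The coding sequences of the 4 genes were aligned end to end. AT2G18540 and AT4G36700 matched at 72.1% of 1492 aligned bases, and the other 5 pairs at 56.6% to 59.2%. Members matched the 4 cruciferin genes at 55.3% to 62.8%. The pair most alike in sequence thus holds the gene that was flat across genotypes and the gene with the narrowest range among those that were not. The coding GC content was 45.3% to 46.4%. None of the 4 genes overlaps another annotated gene.

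Of the 3 genes on either side of each member, 24 in all, 17 had status OK in mat *nrpd1+/-*, and 4 were at least 2-fold higher and 1 lower, where 9.32% of all genes were higher and 12.2% lower. In *nrpd1-/-*, 3 of 18 were at least 2-fold higher, where 8.18% of all genes were, and 0 were lower. In pat *nrpd1+/-*, 1 of 16 was higher, where 2.36% of all genes were, and 0 were lower. With so few genes, these counts are descriptions. Near *PAP85*, the proteasome subunit gene *PBD1* (AT3G22630) was at 259 FPKM in WT and 154 FPKM in mat *nrpd1+/-*. AT3G22620, downstream of *PAP85*, was at 0.654 FPKM in WT and 13.2 FPKM in mat *nrpd1+/-*. Near AT2G18540, AT2G18570 was at 0.232 FPKM in WT and 7.07 FPKM in mat *nrpd1+/-*, and its log2 difference was 3.08 in *nrpd1-/-*. Beside AT2G28490, AT2G28470 was at 2.46 FPKM in WT and 14.3 FPKM in mat *nrpd1+/-*. The remaining higher gene and the lower gene in mat *nrpd1+/-* were both near AT4G36700. AT4G09365 was at 0 FPKM in WT and 1.30 FPKM in mat *nrpd1+/-*, and *HAM4* at 3.73 and 0.963 FPKM.

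The genes whose pattern was most like that of each member were found by the distance between centered log2(FPKM + 1) values over the 6 columns, among 19695 genes that reached 1 FPKM. The 5 nearest to *PAP85* were *ATS1* (a peroxygenase of oil bodies), AT1G71695 (a peroxidase), *TIP3;1* (an aquaporin of the vacuole membrane), *ATS3* (embryo-specific protein 3) and AT2G28490, at distances of 1.01 to 1.22. *ATS1* was at 4.74 FPKM in WT and 439 FPKM in mat *nrpd1+/-*, and at 37.9 and 1047 FPKM in the *nrpd1-/-* table. The 5 nearest to AT2G28490 were *TIP3;1*, *BETA-TIP*, *SESA5*, *ATS1* and the dehydrin gene AT2G21490, at distances of 0.741 to 1.17. *TIP3;1* was at 9.02 FPKM in WT and 857 FPKM in mat *nrpd1+/-*, and at 7.98 and 2.97 FPKM in the pat *nrpd1+/-* table. The 5 nearest to AT2G18540 were AT3G57780, AT1G19835, *NRT1.7* (a nitrate transporter), AT3G19370 and AT1G22930, at distances of 0.344 to 0.602. AT3G57780 was at 18.8 FPKM in WT and 109 FPKM in mat *nrpd1+/-*. Those nearest to AT4G36700, which had little pattern to match, were AT5G37310, AT1G10180, *EML3*, *ARC3* and AT1G76460, at distances of 0.0601 to 0.110. AT5G37310 was at 31.5 FPKM in WT, far below AT4G36700. AT1G71695, *TIP3;1*, *ATS3*, *NRT1.7*, *ARC3* and AT1G76460 lie in the introgressed regions. The columns share libraries, so these distances are descriptions over 6 values.

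The other storage protein genes mostly had the directions of *PAP85* where Cuffdiff gave a value. For the counts that follow, 9.32% of all genes were at least 2-fold higher in mat *nrpd1+/-* and 8.18% in *nrpd1-/-*. In pat *nrpd1+/-*, 2.8% of all genes were at least 2-fold lower. In mat *nrpd1+/-*, 4 of 4 cruciferin genes were at least 2-fold higher and 0 were lower, with a median log2 difference of 6.94, and *CRA1* was at 251 FPKM in WT and 2137 FPKM in mat *nrpd1+/-*. In *nrpd1-/-*, the 2 cruciferin genes with status OK were higher, AT1G03890 with 0.385 FPKM in WT and 193 FPKM in *nrpd1-/-*, and *CRU2* with 21.1 and 2042 FPKM. *CRA1* and *CRU3* were listed at 0 in *nrpd1-/-* with the status HIDATA, which Cuffdiff gives to loci with too many fragments to process, and were left out. In pat *nrpd1+/-*, 3 of 3 cruciferin genes with status OK were at least 2-fold lower, *CRA1* with 222 FPKM in WT and 44.5 FPKM in pat *nrpd1+/-*. Among the 5 genes for 2S albumins, 2 of 2 with status OK were higher in mat *nrpd1+/-* and 3 of 3 in *nrpd1-/-*, and 4 of 5 were lower in pat *nrpd1+/-*. *SESA2* and *SESA3* were listed at 0 with HIDATA in both mutants that lack maternal *NRPD1*, and *SESA4* in mat *nrpd1+/-*. *SESA1* was at 258 FPKM in WT and 1509 FPKM in mat *nrpd1+/-*, but at 229 and 200 FPKM in the pat *nrpd1+/-* table. The oleosin genes, which coat oil bodies, had 4 of 5 higher in mat *nrpd1+/-*, 3 of 4 higher in *nrpd1-/-* and 2 of 5 lower in pat *nrpd1+/-*. Like AT4G36700 among the vicilin-like genes, *OLEO3* was abundant and within 2-fold of WT in every table, at 2261 FPKM in WT and 2196 FPKM in mat *nrpd1+/-*.

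Of the 13 regulators of seed maturation, 12 had status OK in mat *nrpd1+/-*, with 3 at least 2-fold higher and 3 at least 2-fold lower. For the counts of this paragraph, the shares of all genes were 9.32% higher and 12.2% lower in mat *nrpd1+/-*. They were 8.18% and 6.52% in *nrpd1-/-*, and 2.36% and 2.8% in pat *nrpd1+/-*. The B3-domain activator *ABI3* was at 20.0 FPKM in WT and 58.2 FPKM in mat *nrpd1+/-*, the bZIP gene *BZIP53* at 28.0 and 72.9 FPKM, and the bZIP gene *EEL*, in an introgressed region, at 106 and 301 FPKM. *LEC1*, a CCAAT-binding activator of early maturation, was at 509 FPKM in WT and 95.2 FPKM in mat *nrpd1+/-*, *LEC2* at 23.0 and 8.87 FPKM, and *BZIP25* at 62.8 and 28.7 FPKM. In *nrpd1-/-*, 0 of 13 regulators were at least 2-fold higher and 2 were lower, *LEC1* with 207 FPKM in WT and 79.8 FPKM in *nrpd1-/-*, and *LEC2* with 21.6 and 6.67 FPKM. *ABI3* was at 38.2 and 58.5 FPKM there. In pat *nrpd1+/-*, 0 of 12 were higher and 1 was lower, the B3-domain repressor *HSI2*, with 31.2 FPKM in WT and 11.4 FPKM in pat *nrpd1+/-*. Among the vacuolar processing enzymes, which cleave storage proteins, 2 of 4 were higher in mat *nrpd1+/-*. *BETA-VPE*, the seed form, lies in an introgressed region and was at 17.9 FPKM in WT and 241 FPKM in mat *nrpd1+/-*. *ALPHA-VPE* was at 170 and 955 FPKM. In *nrpd1-/-*, both of these were again at least 2-fold higher and *DELTA-VPE* was lower, and 0 of 4 passed 2-fold in pat *nrpd1+/-*. The 4 genes for sorting to the vacuole (*VSR1*, *MAG1*, *VPS35A* and *SNX1*) were within 2-fold of WT in every table on the scale of FPKM + 1. Of these, *VPS35A* in pat *nrpd1+/-* was at the edge, with WT at 21.9 FPKM and pat *nrpd1+/-* at 10.5 FPKM, a plain ratio of 0.481.

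**Figure D5:**
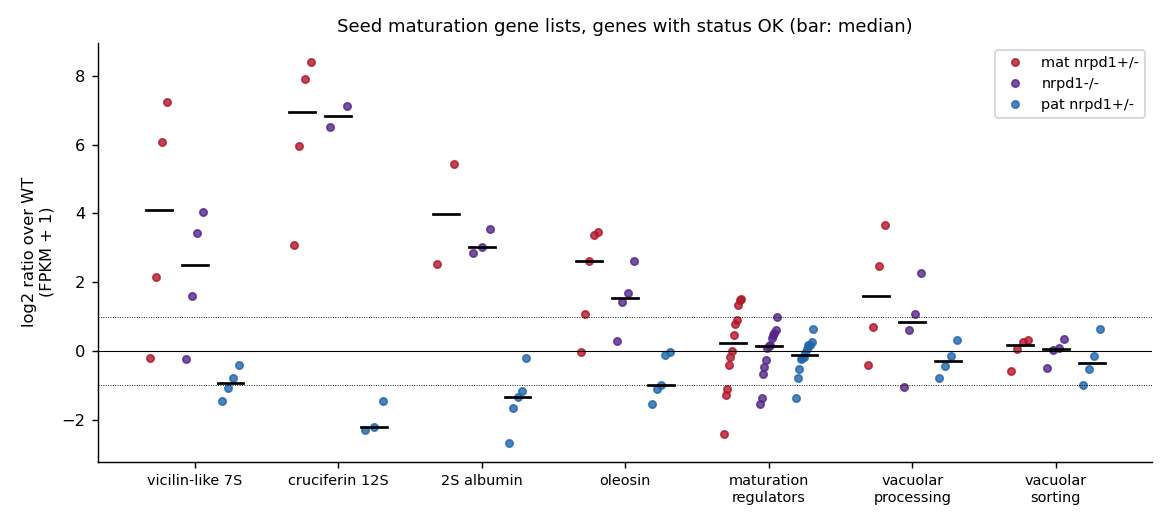
Log2 difference from WT on the scale of FPKM + 1 for each gene with status OK, by list and mutant genotype; black bars are list medians and dotted lines mark 2-fold. Storage protein and oleosin genes lie mostly above 0 in mat *nrpd1+/-* and *nrpd1-/-* and below 0 in pat *nrpd1+/-*, and the medians of the regulators and sorting genes lie near 0, with 6 of 12 regulators past 2-fold in mat *nrpd1+/-*.

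A further 36 genes carry the annotation of an RmlC-like cupin, a list drawn up after the values were seen and including *CRA1* and AT1G03890. Of these, 22 had status OK in mat *nrpd1+/-*, with a median log2 difference of −0.13. Among the 22, 4 were at least 2-fold higher and 3 lower, where 9.32% of all genes were higher and 12.2% lower. The 4 include the cruciferin genes *CRA1* and AT1G03890, already counted above. In *nrpd1-/-*, 5 of 19 were higher, AT1G03890 among them, where 8.18% of all genes were, and 0 were lower, with a median of 0.52. In pat *nrpd1+/-*, 2 of 17 were higher and 1 lower (*CRA1*), where 2.36% and 2.8% of all genes were, with a median of 0.35. AT5G39130 was at 112 FPKM in WT and 396 FPKM in mat *nrpd1+/-*, whereas AT1G07750 was at 371 and 237 FPKM.

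The embryo makes more storage protein than the endosperm, so markers of other seed tissues were read beside these values. In bulk tissue, fewer cells of a type and less RNA per cell cannot be told apart. The 16 embryo patterning genes summed to 113 FPKM in WT and 76.2 FPKM in mat *nrpd1+/-*, and to 87.1 and 72.3 FPKM in the *nrpd1-/-* table, and in pat *nrpd1+/-* their sum was 0.936 times that of WT. Among them, 1 of 8 with status OK was at least 2-fold higher in mat *nrpd1+/-*, the epidermal gene *ATML1*. The 2 that were lower were *CUC1* and *STM*, of which *STM* lies in an introgressed region. In *nrpd1-/-*, 0 of 6 were higher and 2 were lower (*CUC1* and *WOX8*), and 0 of 7 passed 2-fold in pat *nrpd1+/-*. For these counts and the marker counts below, 9.32% of all genes were higher and 12.2% lower in mat *nrpd1+/-*. The shares were 8.18% and 6.52% in *nrpd1-/-*, and 2.36% and 2.8% in pat *nrpd1+/-*. *CLV3* was at 0 in every column, and *WUS* reached at most 0.346 FPKM. These genes were listed as markers of embryo pattern and not of embryo maturation. *WOX8* is among them, and the paper reports it as an imprinted gene expressed in WT endosperm mainly from maternal alleles. In WT of the mat *nrpd1+/-* table, *HB-3* was at 64.2 FPKM and *CUC1* at 31.4 FPKM, and 10 of the 16 were under 1 FPKM. The embryo sum thus rests on a few genes and is not a measure of embryo RNA alone. The part of embryo RNA in the values of the vicilin-like genes was not tested. The 11 seed coat genes summed to 185 FPKM in WT and 223 FPKM in mat *nrpd1+/-*. Their sums were 274 and 221 FPKM in the *nrpd1-/-* table, and 163 and 147 FPKM in the pat *nrpd1+/-* table. In mat *nrpd1+/-*, 1 of 10 with status OK was at least 2-fold higher (*TTG2*) and 0 were lower. In *nrpd1-/-*, 2 of 10 were higher and 1 was lower (*MUM2*). The higher ones, both in introgressed regions, were *BAN*, at 8.84 FPKM in WT and 30.8 FPKM in *nrpd1-/-*, and *TTG2*, at 2.09 and 11.8 FPKM. In pat *nrpd1+/-*, 0 of 11 passed 2-fold. In WT and mutant of the mat *nrpd1+/-* table, the 14 endosperm genes summed to 339 and 407 FPKM. Their sums were 318 and 374 FPKM in the *nrpd1-/-* table, and 298 and 249 FPKM in the pat *nrpd1+/-* table. The sums rest on a few genes: in *nrpd1-/-*, 3 of the 6 endosperm genes with status OK were at least 2-fold lower (*FIS2*, *EDE1* and *ALE1*) and 1 was higher (*YUC10*, at 12.9 FPKM in WT and 79.3 FPKM in *nrpd1-/-*), and their median log2 difference was −0.99. In mat *nrpd1+/-*, 2 of 10 were lower (*PHE1* and *EDE1*) and 1 was higher (*YUC10*), with a median of −0.10. In pat *nrpd1+/-*, 0 of 8 passed 2-fold, with a median of −0.34. Every endosperm gene named here as past 2-fold lies in an introgressed region, as do *SUC5* and *RGE1*. The part of the endosperm genes in the values of the vicilin-like genes was not tested. *SUC5*, *ALE1* and *RGE1* were detected in every column, whereas *WRKY10* and *AGL90* were at 0 in all, and 7 of the 14 were under 1 FPKM in WT of the mat table.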

How the data were processed

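Endosperm mRNA was measured in 8 samples at 7 days after pollination. The authors trimmed the reads with Trim Galore, aligned them to TAIR10 with TopHat and ran Cuffdiff (2.2.1 in the submitters' processing notes), and the deposited FPKM values are 1 pooled value for each genotype, gene and comparison. The deposited introgressed regions were used as given. The authors' fold changes, test statistics, p-values and q-values were not used. The value column of pat *nrpd1+/-* was taken as the authors' pooled value, since no sample of it was analysed here.

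Differences are log2(mutant FPKM + 1) minus log2(WT FPKM + 1), and a gene counts as differing at 2-fold with status OK. Genes at 0 with status HIDATA were left out. Ranks of level are over 37044 nuclear genes. Of 37329 identifiers, 37044 matched the RefSeq annotation of TAIR10.1, and 31227 had the same start. The named genes are the members, the genes of fixed lists and the 5 nearest patterns per member. Members and lists were chosen with earlier results of these data known. Alternatives were 0.1 FPKM or nothing added, centering, scaling to a common total, other filters and leaving out the introgressed regions. The code was tested on simulated data. Proteins were not analysed here. Python 3.11.15, numpy 2.4.6 and pandas 2.3.3 were used.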

Additional observations from a re-analysis of the deposited data

Results flagged for a closer look

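Of the 4 vicilin-like genes, 3 lay on opposite sides of WT in the reciprocal heterozygotes. The log2 difference from WT was 7.24 in mat *nrpd1+/-* and −1.07 in pat *nrpd1+/-* at *PAP85*, 6.08 and −0.79 at AT2G28490, and 2.14 and −1.45 at AT2G18540. In pat *nrpd1+/-*, *PAP85* at 0.354 FPKM and AT2G28490 at 0.340 FPKM were under 1 FPKM. Each value is a single pooled value per genotype, both comparisons rest on the same WT values, and the difference between the heterozygotes was not tested.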

How the results depend on the processing

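The 12 differences of the vicilin-like genes from WT were recomputed under 4 alternatives each, and 42 of these 48 values moved by less than 1.5-fold. The other 6 came from adding 0.1 FPKM or nothing at low levels, which gave −2.10 and −2.38 at *PAP85* and −1.68 and −1.95 at AT2G28490 in pat *nrpd1+/-*, and 6.72 and 6.81 at AT2G28490 in mat *nrpd1+/-*. Among these 48, only AT4G36700 in mat *nrpd1+/-* changed sign, to 0.36 with columns scaled to a common total, and only AT2G28490 in pat *nrpd1+/-* passed to the other side of 2-fold. A further alternative, chosen after the values were seen, took WT of the other set with columns scaled to a common total. It changes the scaling as well as the WT. With it, 10 of 12 moved by over 1.5-fold and none that had passed 2-fold changed sign. The difference of *PAP85* became 8.01 in *nrpd1-/-*, 3.86 in mat *nrpd1+/-* and −4.98 with the paternal mutation. Scaling alone gave 4.15, 7.73 and −1.13 in the same order. AT4G36700 changed sign in *nrpd1-/-* with the other WT, to 0.34. The counts of all genes past 2-fold depended on the FPKM added: with 0.1, 3427 instead of 2048 genes were higher in mat *nrpd1+/-*, 2756 instead of 1662 were higher and 2340 instead of 1324 lower in *nrpd1-/-*, and 1237 instead of 487 were higher and 1703 instead of 579 lower in pat *nrpd1+/-*. Of the list counts, that of lower sorting genes in pat *nrpd1+/-* was 1 instead of 0 with 0.1 FPKM added or with centering (*VPS35A*), and that of lower oleosin genes was 3 instead of 2 with centering. Pooled values allowed neither leaving out a replicate nor an interval. No paired analysis was possible because the value columns carry no replicate numbers.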
